A study of Mus musculus with 7 samples.

Results

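Nuclear genes for the subunits of the oxidative phosphorylation complexes were followed through 7 RNA-seq libraries of mouse salivary gland. Members were chosen by symbol alone, as genes named Nduf (letters a, b, c, s or v and a number), Sdha to Sdhd, Uqcr, Atp5, or Cox4 to Cox8 with a letter from a to c. The rule found 82 of the 23366 genes listed, of which 35 belong to complex I, 4 to complex II, 8 to complex III, 16 to complex IV and 15 to ATP synthase. Ndufa4, which carries a complex I name, was counted with complex IV, where its protein is known to sit. The remaining 4 genes (Ndufa4l2, Cox7a2l, Atp5s and Atp5sl) share the names but were assigned to no complex. In all, 79 members had enough counts to be tested. Cox8c and Ndufs5 were listed at 0 in every library, and Cox7b2 had 1 count in a single submandibular library. Many genes of this pathway have processed pseudogenes in the mouse genome, and how the counting treated shared reads is not given in the sources used here, so levels such as the zeros of Ndufs5 are uncertain.

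The libraries came from submandibular gland at postnatal day 18 (P18, 2 libraries), adult parotid gland at 12 weeks (3 libraries) and P18 parotid gland (2 libraries). The labels name no treatment and no engineered allele for any group, and the strain, the sex and the number of animals behind a library are unknown here. By its labels the material is whole tissue, but the protocol for RNA extraction describes epithelial cells that had been isolated. Nothing states that replicates came from separate animals, so p-values measure only the spread between these libraries, which may be technical. The comparisons ask how the submandibular gland differs from the parotid at the same age, the contrast in the series title, and how the adult parotid differs from the P18 parotid.

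Oxidative phosphorylation passes electrons from NADH, through complex I, and from succinate, through complex II, to ubiquinone, then through complex III and cytochrome c to complex IV, which reduces oxygen. Complexes I, III and IV pump protons across the inner mitochondrial membrane, and complex V, the ATP synthase, lets them back to make ATP. Most subunits are encoded in the nucleus and made wherever a cell has mitochondria. A few have tissue-specific copies: in rodents Cox8b, Cox7a1 and Cox6a2 are the heart and skeletal muscle forms of complex IV subunits, with Cox8b and Cox7a1 also known from brown fat, while Cox8a, Cox7a2 and Cox6a1 are the widely expressed forms. Subunit c of ATP synthase, the protein of its rotating ring, is made from Atp5g1, Atp5g2 and Atp5g3, whose mature products are the same protein. In salivary glands, ATP drives the ion pumping and exocytosis behind secretion, and striated duct cells are known for dense basal mitochondria.

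The results turn on a few paralogues, and the 250 bases upstream of the annotated start of 6 of them are printed first, to set the copies of a subunit side by side. The windows come from RefSeq's annotation of GRCm38.p6, one start per gene, and are written 5′ to 3′ on the gene's strand in lower case, with CG pairs in capitals. Cox8b lies at chr7:140900447-140900696 on the minus strand and Cox8a at chr19:7217617-7217866 on the minus strand.
Cox8b: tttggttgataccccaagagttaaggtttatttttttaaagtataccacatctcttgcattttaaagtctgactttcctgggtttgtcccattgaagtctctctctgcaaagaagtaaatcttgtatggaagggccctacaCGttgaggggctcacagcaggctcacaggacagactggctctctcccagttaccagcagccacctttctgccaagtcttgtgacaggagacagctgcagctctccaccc
Cox8a: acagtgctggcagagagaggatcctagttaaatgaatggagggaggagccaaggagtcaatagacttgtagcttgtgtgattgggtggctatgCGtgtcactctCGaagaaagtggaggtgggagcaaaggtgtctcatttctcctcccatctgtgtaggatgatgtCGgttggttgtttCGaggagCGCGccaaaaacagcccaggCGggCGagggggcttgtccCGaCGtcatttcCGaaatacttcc
The window of Cox8b held 1 CG pair and that of Cox8a 11. Cox7a1 lies at chr7:30183921-30184170 on the plus strand and Cox7a2 at chr9:79759854-79760103 on the minus strand.
Cox7a1: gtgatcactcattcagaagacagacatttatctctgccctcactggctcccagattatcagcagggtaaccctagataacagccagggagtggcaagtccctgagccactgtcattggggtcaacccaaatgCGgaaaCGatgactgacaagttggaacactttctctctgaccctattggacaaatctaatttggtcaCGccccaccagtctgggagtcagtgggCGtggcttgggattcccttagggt
Cox7a2: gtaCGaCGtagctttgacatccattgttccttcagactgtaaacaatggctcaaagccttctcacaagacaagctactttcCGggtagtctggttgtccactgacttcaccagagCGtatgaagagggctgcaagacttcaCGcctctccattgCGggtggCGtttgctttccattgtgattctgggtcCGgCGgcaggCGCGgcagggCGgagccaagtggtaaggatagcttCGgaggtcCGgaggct
Cox7a1 had 4 CG pairs and Cox7a2 14. The subunit c genes Atp5g1, at chr11:96075632-96075881 on the minus strand, and Atp5g3, at chr2:73911327-73911576 on the minus strand, are shown because their counts ran against those of most members.
Atp5g1: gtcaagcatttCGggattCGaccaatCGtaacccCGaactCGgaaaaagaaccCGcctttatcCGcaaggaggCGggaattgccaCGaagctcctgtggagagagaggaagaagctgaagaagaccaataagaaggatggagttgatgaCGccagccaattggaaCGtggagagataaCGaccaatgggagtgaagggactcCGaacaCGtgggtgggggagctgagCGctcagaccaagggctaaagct
Atp5g3: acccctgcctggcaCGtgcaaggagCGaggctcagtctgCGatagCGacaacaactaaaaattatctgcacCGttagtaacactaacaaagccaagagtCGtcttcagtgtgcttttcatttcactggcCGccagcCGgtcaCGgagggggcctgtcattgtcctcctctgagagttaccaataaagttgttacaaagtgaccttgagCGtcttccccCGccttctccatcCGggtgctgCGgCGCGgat
Both of these held 15 CG pairs.

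Across the 66 members with an entry in the promoter table, the median was 14 CG pairs per window (quartiles 9 and 19), against 6 (quartiles 2 and 16) across all 27025 genes of the table. Cox8b had the fewest of the 66, followed by Cox7a1 and Ndufc2, an accessory subunit of complex I, with 4 each, and by Cox7b and Uqcr10 with 5 each. Searched on both strands and counted once per window, GCATGCGC, letters bound by nuclear respiratory factor 1, occurred in 8 of 66 member windows (12.1%), against 2.32% of all windows. CCGGAAG, letters bound by ETS factors such as GABP, occurred in 11 of 66 (16.7%), against 7.05%. AAGGTCA, letters bound by estrogen-related receptors, occurred in 5 of 66 (7.58%), against 4.05%. Of the 6 windows printed, that of Atp5g3 holds AAGGTCA, on the strand opposite to the one printed, and none holds either of the other motifs. These are matches of letters and carry no information on binding in these glands.

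Libraries held 12844534 to 28856127 counts. The composition differed between groups: 5 parotid acinar genes took 0.0417% and 0.0597% of counts in P18 submandibular gland, 41.2%, 38.2% and 40.1% in adult parotid, and 12.4% and 3.11% in P18 parotid, and the scaling factors (TMM) ran from 0.640 in an adult library to 1.72 in P18 parotid replicate 1. Levels are therefore given as counts scaled by TMM to a common total (CPM), a scale that does not correct for gene length, unless TPM, which does, is named. P18 parotid replicate 2 stood apart from every other library in the members. Its summed member level was 28635 CPM, where the other libraries had 8616 and 9363 CPM in P18 submandibular gland, 10708, 9716 and 8608 CPM in adult parotid, and 9734 CPM in P18 parotid replicate 1. As raw shares of all counts, members took 0.949% and 0.972% in P18 submandibular gland, 0.685%, 0.695% and 0.618% in adult parotid, and 1.67% and 4.43% in P18 parotid. The groups did not overlap in this share, and the exact two-sided permutation tests gave p = 0.333 for P18 submandibular gland against P18 parotid and p = 0.2 for adult parotid against P18 parotid, in both cases the smallest value that so few libraries allow.

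P18 parotid replicate 2 was the highest of the 7 libraries for 75 of the 79 tested members, against 23.5% of all genes tested. The exceptions were Atp5g1, Atp5g2, Atp5g3 and Atp5j, all of ATP synthase. The median member was 2.92-fold higher in replicate 2 than in replicate 1 of P18 parotid (log2 1.55), while the median over all genes was -0.02 on the log2 scale. The log2 ratio ranged from -0.28 for Atp5g1 to 2.06 for Cox7a1, and it exceeded 1 for 72 members. By complex the median log2 ratio was 1.55 in complex I, 1.59 in complex II, 1.69 in complex III, 1.65 in complex IV and 1.44 in ATP synthase. Within complex I, the 7 catalytic core subunits had a median of 1.69 and the 27 tested accessory subunits one of 1.51. The other 6 libraries lay within a 2-fold range of each other for 69 members. The 10 that spread more widely were Atp5g1, Atp5g3, Atp5j, Cox5a, Cox6a2, Cox6b2, Cox7a1, Cox8b, Ndufa4l2 and Uqcrq. Comparisons with P18 parotid are therefore given with and without replicate 2, and without it the lone P18 parotid library is assumed to vary like the other groups.

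**Figure D1:**
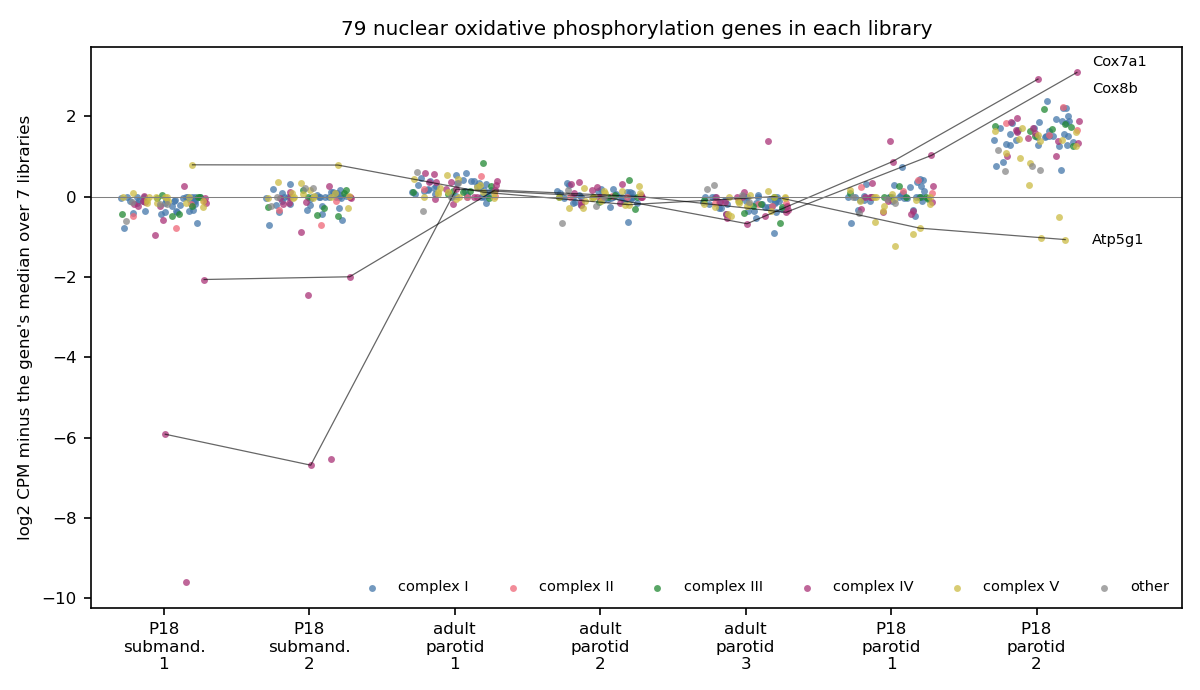
Each of the 79 tested members is 1 point per library, as log2 CPM (0.01 added) minus that gene's median over the 7 libraries, coloured by complex, with lines joining Cox7a1, Cox8b and Atp5g1. Nearly the whole cloud is raised in P18 parotid replicate 2, where 75 members are at their highest, and the lowest points in the P18 submandibular libraries are Cox6a2 and Cox8b.

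Marker lists of other tissues also differed between these libraries. A list of 9 brown fat genes summed to 79.8 and 84.4 CPM in P18 submandibular gland, to 862, 599 and 350.1 CPM in adult parotid, and to 992 and 3930 CPM in P18 parotid, where the last value is again replicate 2. In P18 submandibular gland most of that sum was the coactivator Ppargc1a, whose values are given further below and which did not pass between the glands. Elovl3, Otop1 and Cpt1b were at 0 in both submandibular libraries, and Ucp1, the uncoupling protein that defines brown fat, had 0.237 and 0.293 CPM there, 623, 345 and 179 CPM in adult parotid and 674 and 2804 CPM in P18 parotid. A list of 9 general adipocyte genes summed to 34.7 and 36.7 CPM in P18 submandibular gland, 2356, 2411 and 2272 CPM in adult parotid, and 2012 and 6613 CPM in P18 parotid. The 12 skeletal muscle genes summed to 3.55 and 53.9 CPM in P18 submandibular gland, 632, 1540 and 5738 CPM in adult parotid, and 1365 and 6836 CPM in P18 parotid, with Myh7 at 0 in both submandibular libraries and Pvalb at 0 in 1 of them. The 5 heart muscle genes summed to between 1.34 and 5.94 CPM in every library. The 5 epithelial keratin and adhesion genes ran the other way, with 1212 and 1371 CPM in P18 submandibular gland, 524, 559.7 and 545 CPM in adult parotid, and 524 and 204 CPM in P18 parotid. The 5 duct and ionocyte genes summed to 190.4 and 163 CPM in P18 submandibular gland, 44.6, 54.1 and 58.6 CPM in adult parotid, and 79.2 and 33.3 CPM in P18 parotid. Between the P18 parotid replicates the median log2 ratio of replicate 2 to replicate 1 was 2.03 for the 8 tested brown fat genes, 2.48 for the 11 tested muscle genes, 1.71 for the adipocyte genes and -1.44 for the epithelial genes. The part of these tissues in the member values was not tested. In bulk tissue, fewer cells of a type and less RNA per cell cannot be told apart.

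**Figure D2:**
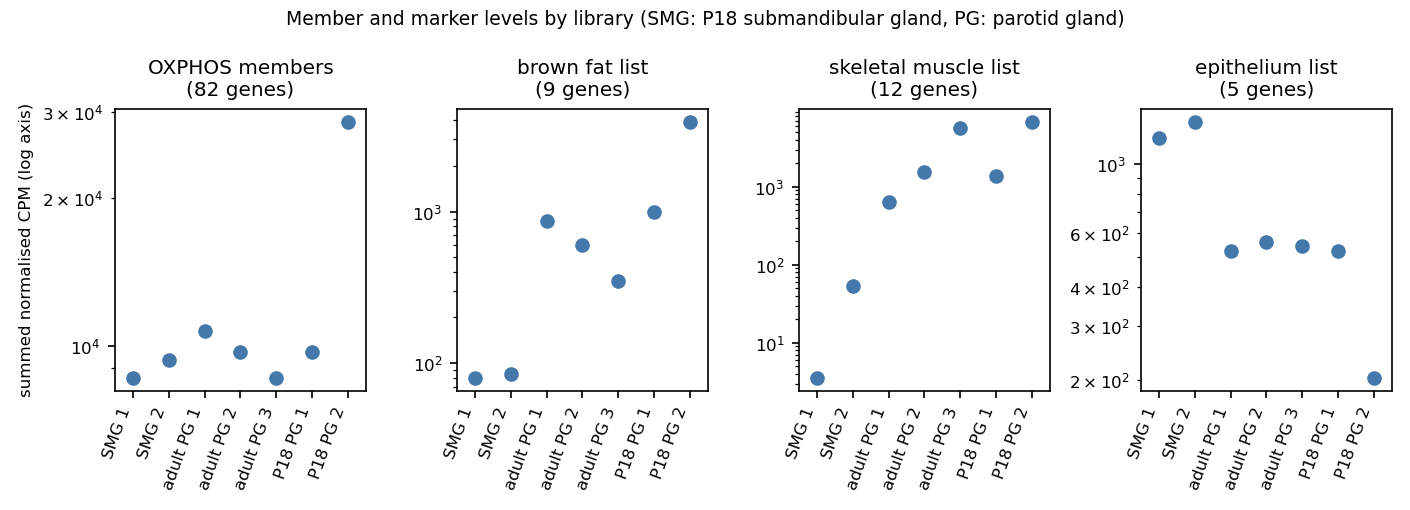
Summed CPM per library, on log axes with a different range in each panel, for the 82 members and for the brown fat, skeletal muscle and epithelium lists. P18 parotid replicate 2 is the highest library for the members (28635 CPM), brown fat (3930 CPM) and muscle (6836 CPM) and the lowest for epithelium (204 CPM). Most of the brown fat sum in P18 submandibular gland is Ppargc1a.

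Summed by complex, the other 6 libraries lay closer to each other than to P18 parotid replicate 2. In complex II, however, both submandibular libraries lay below every parotid library on this TMM scale. Complex II summed to 546 and 583 CPM in P18 submandibular gland, 863, 787 and 688 CPM in adult parotid, and 902 and 2633 CPM in P18 parotid. The order against the adult libraries depended on the scale. As raw shares of counts, complex II took 0.0602% and 0.0605% in P18 submandibular gland, above the 0.0551%, 0.0563% and 0.0494% of adult parotid. P18 parotid stayed highest, with 0.155% and 0.408%. Complex I summed to 2009.9 and 2165 CPM in P18 submandibular gland, 2624, 2326 and 2052 CPM in adult parotid, and 2453 and 7388 CPM in P18 parotid. ATP synthase, the most abundant complex by this measure in all 7 libraries, summed to 3769.7 and 4147 CPM in P18 submandibular gland, 4031, 3842 and 3549 CPM in adult parotid, and 3595 and 9783 CPM in P18 parotid. Set per length, its weight within the pathway differed between groups: ATP synthase made up 34.6% and 34.9% of the members' TPM in P18 submandibular gland, 30.2%, 31.2% and 32.8% in adult parotid, and 27.9% and 24.9% in P18 parotid. Complex IV ran the opposite way, with 21.6% and 21.1% in P18 submandibular gland, 25.5%, 24.8% and 23.0% in adult parotid, and 25.9% and 28.9% in P18 parotid. Complex II took 3.56% and 3.54% in P18 submandibular gland, 4.20%, 4.18% and 4.23% in adult parotid, and 4.98% and 5.10% in P18 parotid. P18 submandibular gland did not overlap P18 parotid in any of these 3 shares, nor in that of complex I, which differed by less, between 26.1% and 27.2% in all libraries. The exact permutation tests of the shares could not go below p = 0.333 for the glands and 0.2 for the ages.

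**Figure D3:**
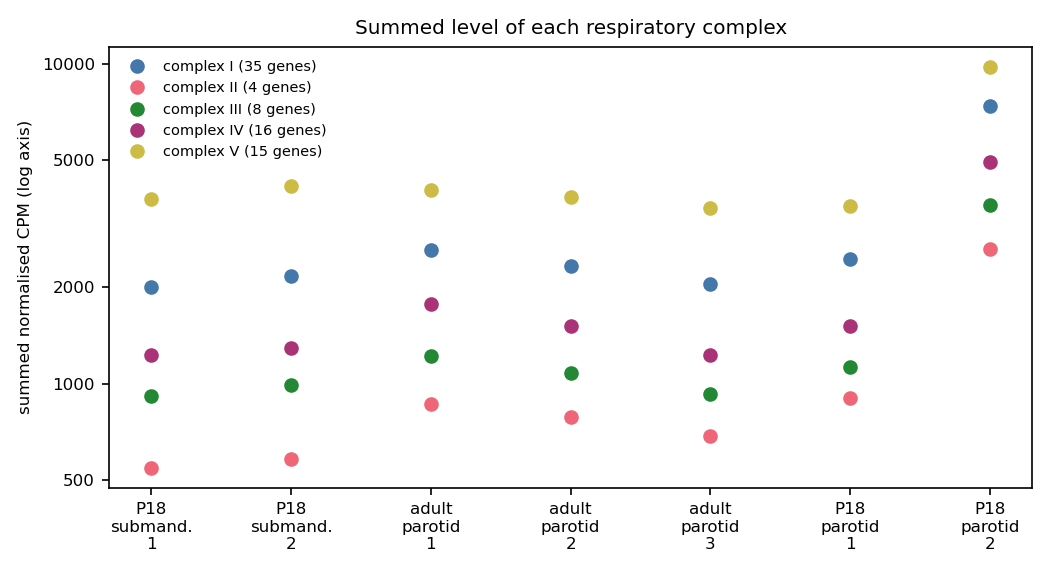
Summed CPM of the members of each complex in each library, on a log axis, with the number of genes in the legend. In P18 parotid replicate 2 all 5 complexes are raised, complex I to 7388 CPM, where the other 6 libraries lie between 2009.9 and 2624 CPM.

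By level per length, Atp5b, the catalytic beta subunit of ATP synthase, was the most abundant member of its complex, with a mean of 1784 TPM over the 7 libraries. Cox6b1 led complex IV with 962 TPM, Uqcrh, the hinge protein of complex III, led that complex with 713 TPM, the accessory subunit Ndufb9 led complex I with 535 TPM and the iron-sulfur subunit Sdhb led complex II with 417 TPM. None of these 5 leading genes passed the test in either comparison. Atp5b had 1206 and 1308 CPM in P18 submandibular gland, 1257, 1371 and 1266 CPM in adult parotid and 1297 and 3991 CPM in P18 parotid, so that 6 libraries lay close together and P18 parotid replicate 2 was far above them.

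At P18, 5 members had the smallest adjusted p between the glands. The tissue-specific complex IV genes Cox8b, Cox6a2 and Cox7a1 were lower in the submandibular gland, with Cox8b and Cox6a2 nearly missing there. The subunit c genes Atp5g1 and Atp5g3 were higher there. In all, 11 of the 79 members were lower and 2 higher in P18 submandibular gland at an adjusted p under 0.05 (edgeR's quasi-likelihood test, adjusted over the 15129 genes tested). Among all genes 24.4% were called, 14.2% lower and 10.2% higher, so the count of lower members was near the share among all genes and is in itself no result about them. The median fitted difference over the members was -1.04 on the log2 scale, against -0.07 over all genes. Without P18 parotid replicate 2 that median was -0.07, and 8 members were lower and 3 higher, against 12.8% and 9.57% of all genes (22.3% in either direction). Libraries of the glands did not overlap for 43 of 79 members, against 64.9% of genes. Plain library sizes in place of TMM placed the median gene at -0.67, and with them 69 members were lower and 1 higher, where 39.4% of all genes were called. Without P18 parotid replicate 1 the fit called 72 members and 34.9% of all genes, and without P18 submandibular replicate 1 it called 2 members and 2.81% of genes. Without adult replicates 1, 2 and 3 it called 7, 6 and 6 members, against 23.6%, 15.8% and 18.1% of genes. Without P18 submandibular replicate 2, which leaves 1 library in that group, the calls in the members were lost, as were most of those among all genes. The median difference over the members was then -1.12, against -0.06 over all genes.

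Complex I, where NADH electrons enter, had 3 of its 34 tested members lower in P18 submandibular gland and none higher. Among all genes 14.2% were lower and 10.2% higher. The lower complex I members included Ndufv1, the subunit that binds NADH, and the accessory subunit Ndufa10. Ndufv1 had 101 and 105 CPM in P18 submandibular gland and 174 and 592 CPM in P18 parotid. The submandibular libraries lay close together, below either parotid library, and most of the distance was set by parotid replicate 2. The log2 fold change of Ndufv1 was -1.90 ± 0.51 (SE, adjusted p = 0.0344), and without P18 parotid replicate 2 it was -0.74 ± 0.18 (adjusted p = 0.0295). Ndufa10 was called with all libraries (-1.82 ± 0.52, adjusted p = 0.0403) and missed the threshold without replicate 2 (-0.77 ± 0.31, adjusted p = 0.119). All 34 fitted differences were negative, with a median of -1.02, and the 7 core subunits had a median of -1.47 and the accessory ones -1.0. Without P18 parotid replicate 2 these medians were -0.09, -0.37 and -0.05.

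Complex II links the respiratory chain to the citric acid cycle through succinate. Its flavoprotein Sdha had 240.2 and 253 CPM in P18 submandibular gland and 456 and 1205 CPM in P18 parotid, with no overlap. Sdha was lower in P18 submandibular gland (-1.75 ± 0.44, adjusted p = 0.0285) and kept its call without P18 parotid replicate 2 (-0.87 ± 0.19, adjusted p = 0.0220). The membrane anchor Sdhd was also lower (-1.65 ± 0.47, adjusted p = 0.0414) but not without replicate 2 (-0.62 ± 0.20, adjusted p = 0.0691). The iron-sulfur subunit Sdhb (-1.74 ± 0.55, adjusted p = 0.0570) and the other anchor Sdhc (-1.15 ± 0.44, adjusted p = 0.102) did not pass. In complex III, 1 of 8 members was lower, against 14.2% of all genes: Uqcrc1, a core protein of the matrix side. Uqcrc1 had 139.9 and 143 CPM in P18 submandibular gland and 234 and 886 CPM in P18 parotid, and its log2 fold change was -1.98 ± 0.55 (adjusted p = 0.0385), or -0.70 ± 0.20 (adjusted p = 0.0450) without replicate 2. The calls for the complex I, II and III genes named here were lost when either submandibular library was left out, with adjusted p between 0.160 and 0.202, and those of Ndufv1, Ndufa10, Sdhd and Uqcrc1 also when any adult library was left out, with adjusted p between 0.0503 and 0.0763. Sdha lost its call without adult replicate 2 (adjusted p = 0.0574) and adult replicate 3 (adjusted p = 0.0507), which the shared estimate of spread draws on.

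Complex IV held the members with the greatest fold changes. Of its 14 tested members, 5 were lower in P18 submandibular gland and none higher, against 14.2% and 10.2% of all genes. Cox8b had 1.01 and 0.586 CPM in P18 submandibular gland and 112 and 466 CPM in P18 parotid. The submandibular values rest on 17 and 8 counts, and both parotid libraries stood far above them. The log2 fold change was -8.47 ± 0.88 (adjusted p = 0.00311), and -7.08 ± 0.43 (adjusted p = 0.000381) without P18 parotid replicate 2. Cox7a1 had 9.29 and 9.74 CPM in P18 submandibular gland and 79.2 and 331 CPM in P18 parotid, again without overlap, with a log2 fold change of -4.43 ± 0.65 (adjusted p = 0.00641), or -3.04 ± 0.23 (adjusted p = 0.000813) without replicate 2. Cox6a2 had 0 and 1 count in the submandibular libraries and 134 and 451 counts in the parotid ones. Its ratio of P18 parotid to P18 submandibular gland was 403, with a 95% counting interval of 72.0 to 15943 that covers counting error only, and it passed the test (adjusted p = 0.00610), also without parotid replicate 2 (adjusted p = 0.00537). Cox6b2, known as the testis form, had 0.296 and 0.0732 CPM in P18 submandibular gland and 1.18 and 1.34 CPM in P18 parotid, at most 30 counts a library, and was lower (-2.67 ± 0.60, adjusted p = 0.0203; -2.55 ± 0.73, adjusted p = 0.0492 without parotid replicate 2). Its P18 parotid replicates agreed closely, with a log2 ratio of 0.19 for replicate 2 over replicate 1.

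Most of these calls needed both submandibular libraries. Without P18 submandibular replicate 2 the adjusted p was 0.0517 for Cox8b, 0.0756 for Cox7a1, 0.0597 for Cox6a2 and 0.153 for Cox6b2, while the log2 fold changes of Cox8b and Cox7a1 were -8.16 and -4.46. Without P18 submandibular replicate 1 it was 0.0649 for Cox7a1, 0.0596 for Cox6a2 and 0.0692 for Cox6b2, while Cox8b kept its call. The widely expressed partners of Cox8b and Cox7a1 gave no call. Cox8a had 159.7 and 165 CPM in P18 submandibular gland and 150.3 and 414 CPM in P18 parotid (-0.80 ± 0.44, adjusted p = 0.228). Cox7a2 had 144 and 146 CPM in P18 submandibular gland and 88.9 and 242 CPM in P18 parotid (-0.19 ± 0.43, adjusted p = 0.778). For both, the submandibular libraries lay between the parotid replicates. Cox6a1 (-1.20 ± 0.50, adjusted p = 0.125), Cox6b1 (-1.43 ± 0.53, adjusted p = 0.0903), Cox7b (-0.96 ± 0.47, adjusted p = 0.178), Ndufa4 (-1.25 ± 0.51, adjusted p = 0.118) and its relative Ndufa4l2 (-1.12 ± 0.57, adjusted p = 0.192) did not pass either. Cox5a, a subunit on the matrix side, was called with all libraries (-1.74 ± 0.52, adjusted p = 0.0471) and not without P18 parotid replicate 2 (-0.52 ± 0.17, adjusted p = 0.0702).

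With all 7 libraries, ATP synthase was the only one of the complexes with members higher in P18 submandibular gland, and it had none lower. The higher members were 2 of 15, against 10.2% of all genes. Atp5g1 had 147 and 147 CPM in P18 submandibular gland and 49.3 and 40.5 CPM in P18 parotid. Atp5g3 had 172 and 189 CPM in P18 submandibular gland and 79.5 and 92.0 CPM in P18 parotid. Both were clear of overlap, and in both the P18 parotid replicates lay close together, unlike nearly all other members. Atp5g1 was 3.27-fold higher (1.71 ± 0.20, adjusted p = 0.00393; 1.59 ± 0.20, adjusted p = 0.00341 without parotid replicate 2) and Atp5g3 2.11-fold higher (1.08 ± 0.20, adjusted p = 0.0109; 1.2 ± 0.18, adjusted p = 0.00634). Atp5g1 missed the threshold without P18 submandibular replicate 2 (adjusted p = 0.0524), and Atp5g3 without submandibular replicate 1 (adjusted p = 0.0669) or 2 (adjusted p = 0.103). The size of both depended on the scale: with plain library sizes Atp5g1 was at 1.09 (adjusted p = 0.00846) and Atp5g3 at 0.47 (adjusted p = 0.0899), and on log2(TPM + 1) with limma at 0.78 (adjusted p = 0.0154) and 0.15 (adjusted p = 0.599), where the median of all genes was -0.67 and -0.79. The third gene of the protein, Atp5g2, had 101 and 128 CPM in P18 submandibular gland and 78.6 and 123 CPM in P18 parotid, with overlap and no call (0.18 ± 0.32, adjusted p = 0.709; -0.42 under plain library sizes, -0.72 in log2(TPM + 1)). Atp5j, coupling factor 6 of the stalk, had 106 and 118 CPM in P18 submandibular gland and 61.9 and 83.4 CPM in P18 parotid, and passed the test without parotid replicate 2 (0.87 ± 0.18, adjusted p = 0.0156) but not with it (0.62 ± 0.21, adjusted p = 0.0686). The remaining 11 members of the complex all had negative fitted differences, from -1.10 for Atp5h to -0.38 for Atp5c1, and none passed.

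**Figure D4:**
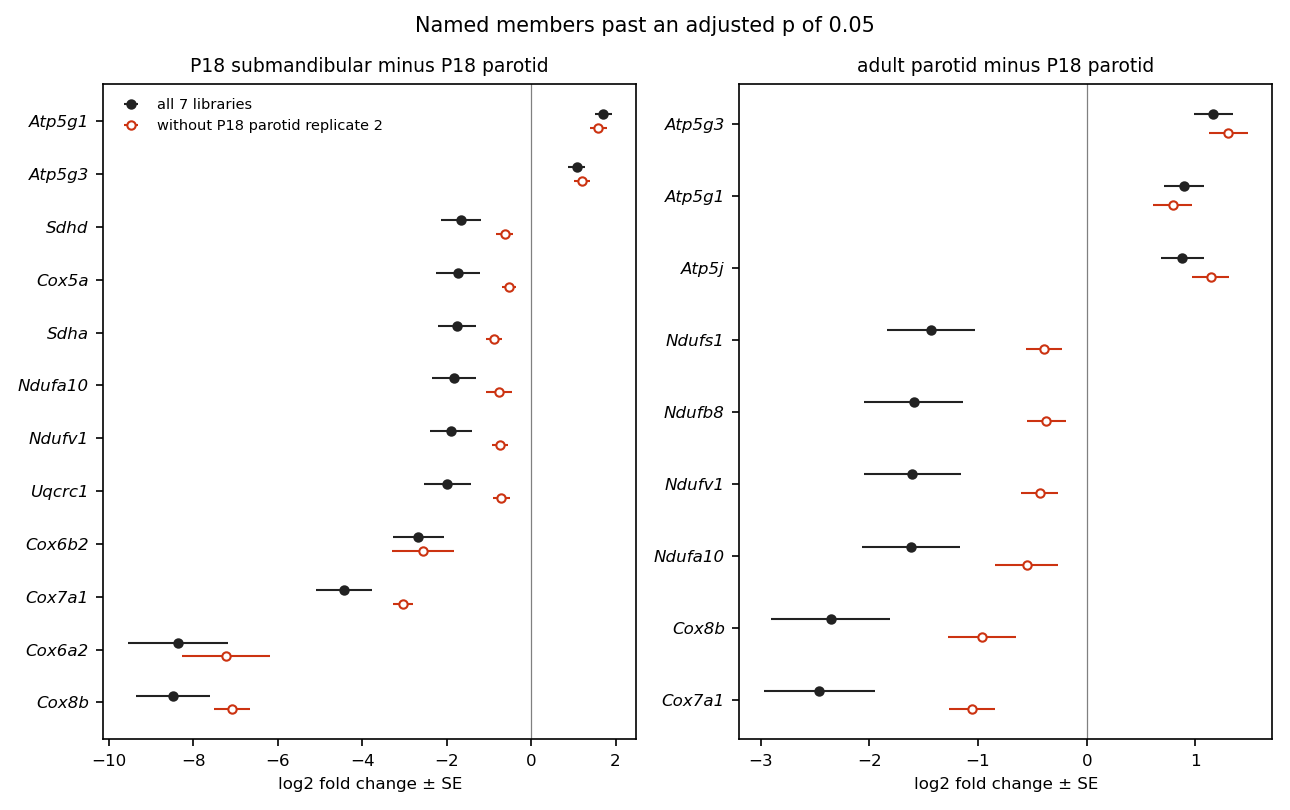
Log2 fold change with its standard error for the members named in the text as called with all 7 libraries, P18 submandibular minus P18 parotid on the left and adult parotid minus P18 parotid on the right. Filled points use all 7 libraries and open points leave out P18 parotid replicate 2. On this TMM scale Atp5g1 and Atp5g3 lie right of 0 in both panels with either set, while the negative values of the complex I genes move towards 0 without that library.

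The share of each paralogue within its family's TPM depends less on how much of a complex a library held. Read this way, the Cox8 and Cox7a mixes separated all groups. In Cox6a2 and Atp5g1, P18 submandibular gland was apart from P18 parotid, but adult and P18 parotid overlapped. Cox8b made up 0.937 and 0.531% of the Cox8 family in P18 submandibular gland, 34.2, 35.0 and 29.1% in adult parotid and 52.9 and 62.8% in P18 parotid. Cox7a1 made up 11.7 and 12.1% of Cox7a1 and Cox7a2 together in P18 submandibular gland, 42.6, 42.4 and 41.6% in adult parotid and 64.7 and 73.8% in P18 parotid. The adult values lay between the other groups without overlap in both families. Cox6a2 took 0 and 0.0472% of the Cox6a pair in P18 submandibular gland, 2.93, 4.15 and 11.3% in adult parotid and 3.38 and 3.53% in P18 parotid, so here the adult libraries overlapped the P18 parotid ones, and adult replicate 3 was the highest of all 7. That library also had the highest muscle sum (5738 CPM) and the lowest brown fat sum (350.1 CPM) of the adult group. Cox8b and Cox7a1 had their lowest adult shares in it, 29.1 and 41.6%. Whether these shares follow either tissue was not tested. Within the subunit c genes, Atp5g1 took 29.3 and 26.2% in P18 submandibular gland, 17.3, 16.0 and 18.7% in adult parotid and 19.2 and 12.5% in P18 parotid, and Atp5g3 43.7 and 43.2% in P18 submandibular gland, 45.1, 55.1 and 53.6% in adult parotid and 39.6 and 36.3% in P18 parotid. Atp5g2 had the largest share of subunit c TPM in P18 parotid, with 41.1 and 51.2%, but in replicate 1 Atp5g3 was close to it. In CPM, Atp5g3 was slightly above Atp5g2 in that replicate, with 79.5 against 78.6. In P18 submandibular gland Atp5g2 took 27.0 and 30.6%, below Atp5g3. The exact permutation tests of these shares gave p = 0.333 for each gland comparison, the smallest possible. For the ages the same exact tests gave p = 0.2 for Cox8b, Cox7a1, Atp5g2 and Atp5g3, also the smallest possible, 0.6 for Cox6a2 and 0.8 for Atp5g1.

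**Figure D5:**
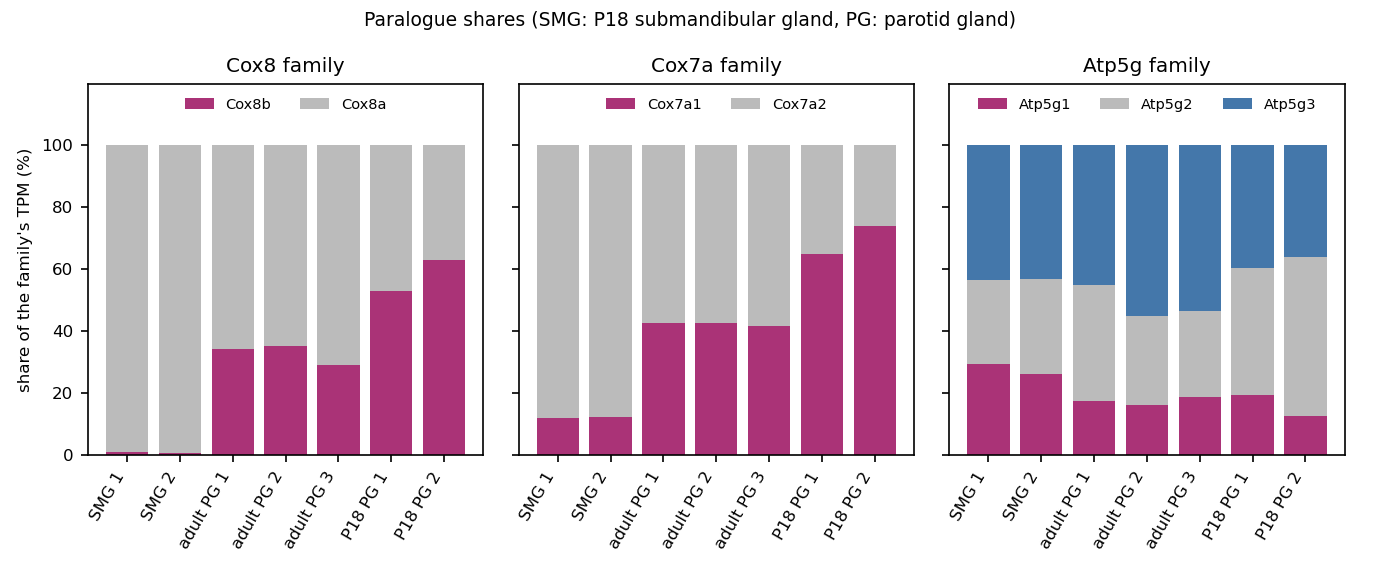
Share of each paralogue in its family's TPM, in percent, per library (SMG for P18 submandibular gland, PG for parotid). Cox8b and Cox7a1 take at most 0.937% and 12.1% in P18 submandibular gland, and the majority in both P18 parotid libraries.

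In the adult parotid, Cox7a1 and Cox8b, the complex IV forms known from heart, skeletal muscle and brown fat, were lower than in P18 parotid. Relative to the typical gene, Atp5g1, Atp5g3 and Atp5j were higher in the adult parotid. Here 6 of 79 members were lower and 3 higher, against 15.1% and 10.7% of all genes tested (25.9% in either direction), and the median fitted difference was -0.96, against -0.01 over all genes. Without P18 parotid replicate 2, 1 member was lower (Cox7a1) and 5 were higher on the TMM scale (Atp5e, Atp5g1, Atp5g3, Atp5j and Ndufa2), against 13.1% and 10.9% of all genes (24.0% in either direction), and the median was 0.04. Libraries did not overlap for 20 of 79 members, against 54.0% of genes. Plain library sizes placed the median gene at -1.24, and with them 75 members were lower and 0 higher, where 72.4% of all genes were called. The fit called 69 members and 39.3% of all genes without P18 parotid replicate 1. Without P18 submandibular replicates 1 and 2 it called 5 and 4 members and 13.7% of genes each time, and without adult replicates 1, 2 and 3 it called 6, 2 and 1 members, against 20.9%, 8.68% and 12.4% of genes. Both comparisons use the same P18 parotid libraries, so the values of a gene in them are not independent.

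Cox7a1 had 43.6, 38.9 and 29.6 CPM in adult parotid and 79.2 and 331 CPM in P18 parotid, with no overlap. Its log2 fold change was -2.46 ± 0.51 (adjusted p = 0.0157), and -1.06 ± 0.21 (adjusted p = 0.0171) without P18 parotid replicate 2. It missed the threshold without adult replicate 2 (adjusted p = 0.0610) and adult replicate 3 (adjusted p = 0.0554). Cox8b had 69.7, 61.3 and 38.4 CPM in adult parotid and 112 and 466 CPM in P18 parotid, again with every adult library below both P18 libraries. Cox8b was lower with all libraries (-2.36 ± 0.55, adjusted p = 0.0220) and missed the threshold without P18 parotid replicate 2 (-0.97 ± 0.31, adjusted p = 0.0657), and likewise without the second adult library (adjusted p = 0.0748) and the third (adjusted p = 0.0700). Cox6a2, in contrast, had 7.74, 9.67 and 20.1 CPM in adult parotid and 6.08 and 20.2 CPM in P18 parotid, with wide spread in both groups and no call (-0.06 ± 0.59, adjusted p = 0.947; 1.09 ± 0.59, adjusted p = 0.213 without P18 parotid replicate 2). Cox6b2 did not pass (-1.49 ± 0.48, adjusted p = 0.0554), nor did Cox8a (-0.72 ± 0.40, adjusted p = 0.205), Cox7a2 (-0.66 ± 0.39, adjusted p = 0.235) or Cox6a1 (-0.77 ± 0.45, adjusted p = 0.228).

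The other 4 members lower in adult parotid belong to complex I: Ndufv1, Ndufs1, the largest subunit, which carries iron-sulfur clusters, and the accessory subunits Ndufa10 and Ndufb8. Ndufs1 had 109, 129.8 and 121 CPM in adult parotid and 161 and 486 CPM in P18 parotid, and Ndufb8 had 93.7, 101 and 79.6 CPM in adult parotid and 121 and 432 CPM in P18 parotid. In each, the adult libraries lay just below P18 parotid replicate 1 and far below replicate 2. The log2 fold changes were -1.60 ± 0.44 for Ndufv1 (adjusted p = 0.0364), -1.43 ± 0.40 for Ndufs1 (adjusted p = 0.0392), -1.62 ± 0.45 for Ndufa10 (adjusted p = 0.0377) and -1.59 ± 0.46 for Ndufb8 (adjusted p = 0.0403). Without P18 parotid replicate 2 all 4 missed the threshold, at -0.43, -0.39, -0.55 and -0.37, with adjusted p from 0.105 to 0.200. They also missed it without either submandibular library and without adult replicates 2 or 3, with adjusted p between 0.0743 and 0.121, and Ndufv1, Ndufs1 and Ndufb8 without adult replicate 1 (adjusted p between 0.0864 and 0.0985). Complexes II and III had no call. Sdha had 414, 417 and 365 CPM in adult parotid and 456 and 1205 CPM in P18 parotid (-1.06 ± 0.39, adjusted p = 0.0798), and Sdhb, Sdhc and Sdhd had adjusted p of 0.0607, 0.0713 and 0.0642.

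In ATP synthase, Atp5g3 had 187, 199 and 191 CPM in adult parotid and 79.5 and 92.0 CPM in P18 parotid, the clearest separation of any member in this comparison by adjusted p. It was 2.24-fold higher in adult parotid with TMM (1.17 ± 0.18, adjusted p = 0.00697; 1.30 ± 0.18, adjusted p = 0.00613 without P18 parotid replicate 2), but with plain library sizes its log2 fold change was -0.07, and -0.74 on log2(TPM + 1). Atp5g1 had 91.8, 74.0 and 85.0 CPM in adult parotid and 49.3 and 40.5 CPM in P18 parotid, without overlap, and was higher with TMM (0.90 ± 0.18, adjusted p = 0.0151; 0.79 ± 0.18, adjusted p = 0.0256 without P18 parotid replicate 2), against -0.36 (plain library sizes) and -1.0 (log2(TPM + 1)). Atp5j had 139, 131 and 131 CPM in adult parotid and 61.9 and 83.4 CPM in P18 parotid and was likewise higher with TMM (0.88 ± 0.20, adjusted p = 0.0190; 1.14 ± 0.17, adjusted p = 0.00781 without P18 parotid replicate 2), against -0.35 and -1.01 on the other scales. All of these lie above the median of all genes, -1.24 under plain library sizes and -1.48 under log2(TPM + 1). Atp5g3 kept its call whichever library was left out, Atp5g1 lost it without adult replicate 3 (adjusted p = 0.0542), and Atp5j without P18 submandibular replicate 2 (adjusted p = 0.0510), the second adult library (adjusted p = 0.0686) or the third (adjusted p = 0.0581). Atp5g2 gave no call (0.17 ± 0.29, adjusted p = 0.683), with 148, 99.2 and 94.0 CPM in adult parotid and 78.6 and 123 CPM in P18 parotid.

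Genes of the pathway that the symbol rule does not reach were read from 3 further lists. Of 7 tested nuclear subunits and carriers outside the rule, 3 were lower and 1 higher in P18 submandibular gland, against 14.2% and 10.2% of all genes. In adult parotid 2 of the 7 were lower and 0 higher, against 15.1% and 10.7% of all genes. Cyc1, the cytochrome c1 of complex III, had 85.8 and 88.3 CPM in P18 submandibular gland and 146 and 470.2 CPM in P18 parotid (-1.82 ± 0.49, adjusted p = 0.0340; -0.73 ± 0.18, adjusted p = 0.0284 without parotid replicate 2). Cytochrome c itself, Cycs (-1.81 ± 0.51, adjusted p = 0.0411), and the hypoxia-responsive lung form Cox4i2 (-2.00 ± 0.50, adjusted p = 0.0289, at most 46 counts a library) lost their calls without that library (adjusted p = 0.0692 and 0.0961). Atpif1, the inhibitor protein of ATP synthase, had 42.3 and 43.9 CPM in P18 submandibular gland and 20.6 and 15.6 CPM in P18 parotid, and was higher in the submandibular gland with both sets of libraries (1.25 ± 0.25, adjusted p = 0.0142; 1.09 ± 0.26, adjusted p = 0.0276). In adult parotid, Cox4i1, the common form of the largest nuclear complex IV subunit (-1.50 ± 0.44, adjusted p = 0.0445), and Cycs (-1.53 ± 0.45, adjusted p = 0.0441) were lower than in P18 parotid and not without replicate 2 (adjusted p = 0.226 and 0.214). The 13 subunits encoded by mitochondrial DNA were not analysed here.

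Of 37 tested assembly factors, proteins that build the complexes without staying in them, 4 were lower and 0 higher in P18 submandibular gland, with 12 at an unadjusted p under 0.05, against 14.2% lower, 10.2% higher and 38% at an unadjusted p under 0.05 among all genes. The 4 were Atpaf2, which handles the alpha subunit of ATP synthase (-2.11 ± 0.49, adjusted p = 0.0227), the complex IV factors Coa5 (-1.34 ± 0.37, adjusted p = 0.0367) and Cox17, a copper chaperone (-1.71 ± 0.51, adjusted p = 0.0478), and Foxred1 of complex I (-1.51 ± 0.43, adjusted p = 0.0406). Without P18 parotid replicate 2, Atpaf2 kept its call (adjusted p = 0.0186) and the other 3 did not (adjusted p = 0.0538 to 0.178). In adult parotid 3 of the 37 were lower and 1 higher, against 15.1% and 10.7% of all genes. Acad9, a complex I factor, had 34.2, 32.3 and 32.2 CPM in adult parotid and 57.0 and 71.8 CPM in P18 parotid (-0.97 ± 0.16, adjusted p = 0.00800; -0.77 ± 0.14, adjusted p = 0.0128 without replicate 2), and Cox20, which attends subunit 2 of complex IV, was higher with TMM (0.72 ± 0.18, adjusted p = 0.0263), by less than the shift of the typical gene under plain library sizes (-1.24). Foxred1 and Atpaf2 were lower with all libraries (adjusted p = 0.0403 and 0.0452) and not without replicate 2 (adjusted p = 0.141 and 0.265). The median log2 ratio of P18 parotid replicate 2 to replicate 1 was 0.98 over the assembly factors, against 1.55 over the members.

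Of 13 tested regulators of mitochondrial biogenesis, 1 was higher and 1 lower in P18 submandibular gland, against 10.2% and 14.2% of all genes. In adult parotid 0 were higher and 4 lower, against 10.7% and 15.1% of all genes. Esrrg, an estrogen-related receptor, had 68.5 and 58.8 CPM in P18 submandibular gland, 5.78, 10.4 and 10.8 CPM in adult parotid and 16.2 and 19.1 CPM in P18 parotid. It was 3.60-fold higher in P18 submandibular gland than in P18 parotid (1.85 ± 0.30, adjusted p = 0.00842; 1.99 ± 0.37, adjusted p = 0.0121 without parotid replicate 2). Ppargc1b, a coactivator of the same receptors, had 3.85 and 2.93 CPM in P18 submandibular gland, 4.01, 5.03 and 4.30 CPM in adult parotid and 10.5 and 30.0 CPM in P18 parotid. It was lower in P18 submandibular gland (-2.57 ± 0.49, adjusted p = 0.0128; -1.60 ± 0.30, adjusted p = 0.0125 without parotid replicate 2) and in adult parotid (-2.18 ± 0.42, adjusted p = 0.0123; -1.20 ± 0.28, adjusted p = 0.0247). Ppargc1a, the coactivator best known from brown fat and muscle, which is also 1 of the 9 brown fat genes, had 71.9 and 76.0 CPM in P18 submandibular gland, 28, 36.1 and 36.5 CPM in adult parotid and 49.1 and 78.8 CPM in P18 parotid. It did not pass between the glands (0.21 ± 0.26, adjusted p = 0.590) and was lower in adult parotid (-0.93 ± 0.23, adjusted p = 0.0276), as were Esrrg (-0.96 ± 0.27, adjusted p = 0.0391) and Gabpa, the ETS subunit of GABP (-0.69 ± 0.19, adjusted p = 0.0386). These 3 adult calls were not kept without P18 parotid replicate 2 (adjusted p = 0.0931, 0.109 and 0.132). Nrf1 itself (-0.04 ± 0.20, adjusted p = 0.894, between the glands) and Tfam, which packages and transcribes mitochondrial DNA (-0.30 ± 0.28, adjusted p = 0.457), passed in neither comparison.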

How the data were processed

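Poly(A) RNA was sequenced from 7 libraries made with the Illumina TruSeq RNA kit, per the labels' protocols. What the authors deposited are 2 tables keyed by gene symbol, one of raw counts and one of TPM (transcripts scaled by length to a fixed total). TopHat2 2.1.1, Bowtie2 2.2.6, featureCounts 1.5.1, DESeq2 1.20.0 and the build mm9 are named in the submitters' processing notes, which give no roles, strand setting or treatment of shared reads. The count table holds 2 further columns that match no label and were not used.

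Library totals were 12844534 to 28856127 counts, and counting intervals cover counting error only. Counts were tested with edgeR 4.0.16 (R 4.3.3): TMM scaling, genes kept by filterByExpr (minimum count 10, minimum total 15), a single quasi-likelihood fit over all 3 groups, leaving 4 residual degrees of freedom, and Benjamini-Hochberg adjustment over all 15129 genes tested, with 0.05 as the threshold. CPM are counts scaled by TMM, SE is the log2 fold change divided by the square root of F, and shares were compared with exact two-sided permutation tests (scipy 1.17.1). Replicates differed beyond sampling noise in every group (chi-square over degrees of freedom at least 13.3), so all were kept as separate samples. The script recovered changes planted in simulated counts that all had the same low spread. That check does not cover replicates as far apart as those of P18 parotid. Alternatives were limma 3.58.1 on log2(TPM + 1) and log2(TPM + 0.1), DESeq2 1.42.0, other scalings and filters, a replicate block and leaving out libraries.

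The members and gene lists were chosen with earlier results of these data known. Genes named in a comparison are up to 10 per direction with the smallest adjusted p and no overlap between groups, all members of the paralogue families and of complex II, and the most abundant member of each complex by TPM. Of the listed genes, up to 3 per list and direction are named. Cox5a among the lower genes and the genes called only without P18 parotid replicate 2 were named after their values were seen, and 1 result within the rule is not reported here. Promoter windows come from RefSeq's annotation of GRCm38.p6, not the authors' build, and were matched by symbol for 66 of 82 members.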

Additional observations from a re-analysis of the deposited data

How the results depend on the processing

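Between P18 submandibular gland and P18 parotid, 13 members were called (2 higher, 11 lower), where 24.4% of all genes were called. Plain library sizes gave 70 (1 higher, 39.4% of genes), DESeq2 35 (3 higher, 29.9%) and only these groups in the fit 4 (1 higher, 9.22%). Limma on log2(TPM + 1), log2(TPM + 0.1) and log2(TPM + 1) without a filter gave 74, 74 and 73 (64.1%, 60.3% and 50.5% of genes). Leaving out adult replicates 1, 2 and 3 gave 7, 6 and 6 (23.6%, 15.8% and 18.1% of genes). For the glands, counts are not listed here for fits with 1 library left in a P18 group, where that library has no spread of its own. Between adult and P18 parotid, 9 were called (3 higher, 6 lower), where 25.9% of all genes were called. Plain library sizes gave 75 (0 higher, 72.4% of genes), DESeq2 35 (3 higher, 32.6%) and only these groups 5 (3 higher, 14.7%). Each limma fit gave 79 (0 higher, 72% to 86.4% of genes). Without both P18 parotid replicate 2 and adult replicate 1 the fit gave 19 (11 higher), where 41.7% of genes were called. Leaving out single libraries gave 1 to 69, where 8.68% to 39.3% of genes were called. Some of these fits leave 1 library in P18 parotid, with no spread of its own. Between the ages, lower calls did not outnumber higher ones with only these groups or without both P18 parotid replicate 2 and adult replicate 1. They also did not when any single library other than P18 parotid replicate 1 was left out. RLE scaling, no count filter and removal of the 50 most abundant genes gave 11 to 14 calls for the glands and 9 to 12 for the ages. In these fits 16.3% to 24.3% of all genes were called for the glands and 17.7% to 25.8% for the ages. The scalings differ in the typical gene: the median of all genes was -0.67 and -1.24 with plain library sizes, and -0.79 and -1.48 on log2(TPM + 1), for the glands and the ages. The cause of the other changes was not tested.

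The median log2 fold change of the members, -1.04 between the glands, was -1.62 with plain library sizes and -1.76, -1.77 and -1.76 in the limma fits. It was -0.066 without both libraries and ran from -1.58 to -0.065 over single libraries left out. Between the ages it was -0.96, and -2.16 with plain library sizes, -2.67, -2.70 and -2.66 in the limma fits, -0.05 without both libraries, and -1.48 to 0.038 over single libraries. The difference in the members' share of counts, -2.09 percentage points between the glands and -2.38 between the ages, was -4.95 and -5.68 as a share of TPM, -1.44 and -1.24 outside the 50 most abundant genes, and -3.47 to -0.709 and -3.77 to -1.0 over single libraries.

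Between the glands, Atp5g2, uncalled, stood at -0.42 with plain library sizes and -0.72 in the limma fits, Atp5j, uncalled, at -0.29 in the limma fits, and Atp5g3 lost its call with plain library sizes (0.47), in the limma fits (0.15 in each) and with only these groups (1.10). Between adult and P18 parotid, the values that turned direction on another scale were those of subunit c and Atp5j. With plain library sizes Atp5g1 stood at -0.36, Atp5g2 at -1.07, Atp5g3 at -0.068 and Atp5j at -0.35. In the limma fits Atp5g1 stood at -1.0, -1.01 and -1.0 and Atp5g2 at -1.72, -1.73 and -1.72. Atp5g3 stood at -0.74 and Atp5j at -1.01 in each of them. Cox6a2 also turned direction between the ages, without both libraries, as given below. As single libraries were left out, Cox7a2 between the glands ran from -0.70 to 0.73 and Cox6a2 between the ages from -0.62 to 1.09. Without both libraries, Cox6a2 was at 1.34 (adjusted p = 0.0391) between the ages and Cox7a2 at 0.73 (adjusted p = 0.0142) between the glands. Over all named members and alternatives, 670 values kept direction and side of the threshold, 108 lost a call, 175 gained one, 35 uncalled values changed sign and 18 turned direction.

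Replicate numbers are shared between groups, but the labels do not say that they mark a common animal, litter or day. Correlations of same-numbered deviations were 0.239 for both pairs of submandibular gland and P18 parotid, which with 2 libraries a group are mirror images and not 2 checks, 0.0844 and 0.0104 for adult and P18 parotid, and -0.0171 and -0.0174 for submandibular gland and adult parotid, so the numbers were not taken as pairs. With the replicate block, 5 members were called between the glands (2 higher, 3 lower, 16.7% of all genes called) and 1, higher, between the ages (9.89% of genes), with medians of -0.93 and -0.77. Between the glands Cox8b, Cox7a1, Cox6a2, Atp5g1 and Atp5g3 were called with the block, and between the ages Atp5g3. Depth limits Cox6a2, Cox6b2 and Cox8b, whose submandibular values rest on at most 17 counts a library.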

Other observations

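A pair of members was called between the ages only without P18 parotid replicate 2. Ndufa2, an accessory subunit of complex I, had 71.2, 72.5 and 68.0 CPM in adult parotid, with 39.7 and 41.7 CPM in P18 submandibular gland and 43.1 and 116 CPM in P18 parotid, so that the adult libraries lay above P18 parotid replicate 1 and below replicate 2. Atp5e, the epsilon subunit of ATP synthase, had 92.4, 100 and 85.6 CPM in adult parotid, with 76.1 and 84.1 CPM in P18 submandibular gland and 55.0 and 166 CPM in P18 parotid, again between the P18 parotid replicates. Against P18 parotid replicate 1 alone, both were higher in adult parotid on the TMM scale, at 0.74 ± 0.15 (adjusted p = 0.0182) and 0.78 ± 0.17 (adjusted p = 0.0228). These genes were picked after their values were seen.

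Other cell types of the gland gave these summed levels beside the members. The 4 endothelial genes had 90.6 and 77.8 CPM in P18 submandibular gland, 224, 169 and 173 CPM in adult parotid, and 282 and 557 CPM in P18 parotid. The 4 B cell genes had 0.178 and 0.439 CPM in P18 submandibular gland, 372, 219 and 159 CPM in adult parotid, and 94.7 and 14.8 CPM in P18 parotid, the lower parotid value being replicate 2. The 4 T cell genes had 2.07 and 1.83 CPM in P18 submandibular gland, 129, 51.1 and 55.0 CPM in adult parotid, and 55.1 and 12.8 CPM in P18 parotid. The 5 submandibular secretory genes took 24.2% and 26.6% of counts in P18 submandibular gland, 0.849%, 1.5% and 1.56% in adult parotid, and 0.00641% and 0.00254% in P18 parotid. The part of these cell types in the member values was not tested.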
